A study of Mus musculus with 426 samples.

Results

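Tumour cells that carry more DNA of chromosome 18 than the average of their autosomes (the high cells) were set against tumour cells that carry less of it (the low cells), in a mouse model of pancreatic cancer. Each cell had its messenger RNA and its genomic DNA read together by GTO, a method that amplifies both in the same tube, so that a difference in chromosome content could be set beside the RNA of the same cells. The value of a cell was the log2 of its mean DNA read count per bin on chromosome 18 over the mean per bin on chromosomes 1 to 19. Cells above 0 were called high and cells below -0.2 low. Of the 418 single cells of the series, 332 were sorted for green fluorescent protein (GFP) and 243 of those had at least 50000 DNA reads. Those 243 cells comprised 69 high cells, 147 low cells and 27 cells between the thresholds, which were not compared.

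The cells compared were sorted for the GFP of KPC1199-EGFP, a mouse pancreatic tumour cell line labelled with green fluorescent protein. Per the labels, 50000 of these cells in matrigel had been placed in the pancreas of each C57BL/6 male at 6 to 8 weeks of age and had grown for 6 to 8 weeks, and no drug or further treatment was named. The line's tumour alleles are not given in the sources used here, and it is a single line, so the results describe its descendants in 3 host mice. GFP+ cells, and GFP+EpCAM+ cells that also carried the epithelial surface protein EpCAM, came from the primary tumours. Metastatic GFP+ cells were taken from the peritoneum in each mouse, and in mice 2 and 3 from spleen, liver and kidney as well. CD45+ leukocytes of the same primary tumours, 53 cells with enough DNA reads, served as host cells for comparison. Mice 1, 2 and 3 gave 30, 24 and 15 high cells and 37, 42 and 68 low cells. Cells of a mouse are not replicates, so tests ran over the 3 mice, apart from fits with a mouse and site block. Nothing in the labels shows whether the cells of a mouse share a clone.

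Tumour cells with unstable genomes gain and lose whole chromosomes and chromosome arms, and the cells of a tumour can then differ in gene dosage. Mouse chromosome 18 carries Smad4 and Smad2, which relay signals of transforming growth factor beta into the nucleus, Smad7, which restrains that relay, and Apc, which restrains Wnt signalling. Loss of SMAD4 is a frequent event in human pancreatic cancer. The Y chromosome is also often lost from tumour cells of males.

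The high cells had a median of 611980 DNA reads (54948 to 2397390) and the low cells a median of 529138 (52490 to 3255870). The RNA minimum of 500 detected genes and 10000 counts was met by 67 high cells and 147 low cells, and the 2 high cells that missed it were from mouse 2. RNA counts were summed per mouse and class, and a single cell gave at most 15.8% of any sum. Some high cells stood apart from the rest. In 4 of them (1 from the primary tumour of mouse 1, 1 from kidney and 2 from peritoneum of mouse 3) the mean log2 level of chromosomes 4, 7, 9, 10, 13 and 14 was above -0.15, whereas no low cell reached that level. The cell from the primary tumour of mouse 1 held 5037 CPM (counts scaled to a common library total) of Col1a1, a fibroblast collagen, and 2816 CPM of Dcn, and gave 96.9% and 92.4% of the Col1a1 and Dcn counts of all high cells of that mouse. Both peritoneal cells held RNA of the macrophage gene C1qa, at 4130 and 881 CPM. The first held 14.1 CPM of Lyz2, the macrophage lysozyme, and 1048 CPM of Dcn, and the second 13626 and 26.5 CPM. The kidney cell held 0 CPM of C1qa, 95.2 CPM of Lyz2 and 67.2 CPM of Dcn. Below, these 4 are the cells that lack the shared losses. Results are given with them, and counts of calls also without them where those moved. In metastasis cells taken alone, 3 of them were among the 6 high cells of mouse 3. There 1 cell gave 41.8% of the high RNA sum, and mouse 1 had no high cells.

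The cells were chosen by their chromosome 18 DNA values, which are therefore a description and were not tested. High cells averaged 0.26 ± 0.19 (SD, n = 69) and low cells -0.41 ± 0.16 (SD, n = 147), while CD45+ cells averaged 0.01 ± 0.18 (SD, n = 53). Within mice 1, 2 and 3 the high cells averaged 0.33, 0.21 and 0.21, against -0.37, -0.39 and -0.45 in the low cells. The spread among the high cells was uneven, since 15 of them lay above 0.4, of which 11 were from mouse 1, 3 from mouse 2 and 1 from mouse 3. Among the low cells 3 lay below -0.8. The lowest high cells lay at 0.0116 and 0.0121, the highest low cells at -0.201 and -0.203, and the cells just outside at -0.00237 and -0.197. Of the 53 CD45+ cells, 39 lay within 0.1 of 0, so the upper threshold falls at the level of most host cells. With chromosome 18 divided into 10 stretches of bins, the high cells averaged 0.03 to 0.63 and the low cells -0.69 to -0.20, and the high mean was above the low mean in each of the 10 stretches. Those bins are the ones the cells were chosen by, so the stretches are a description too.

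**Figure D1:**
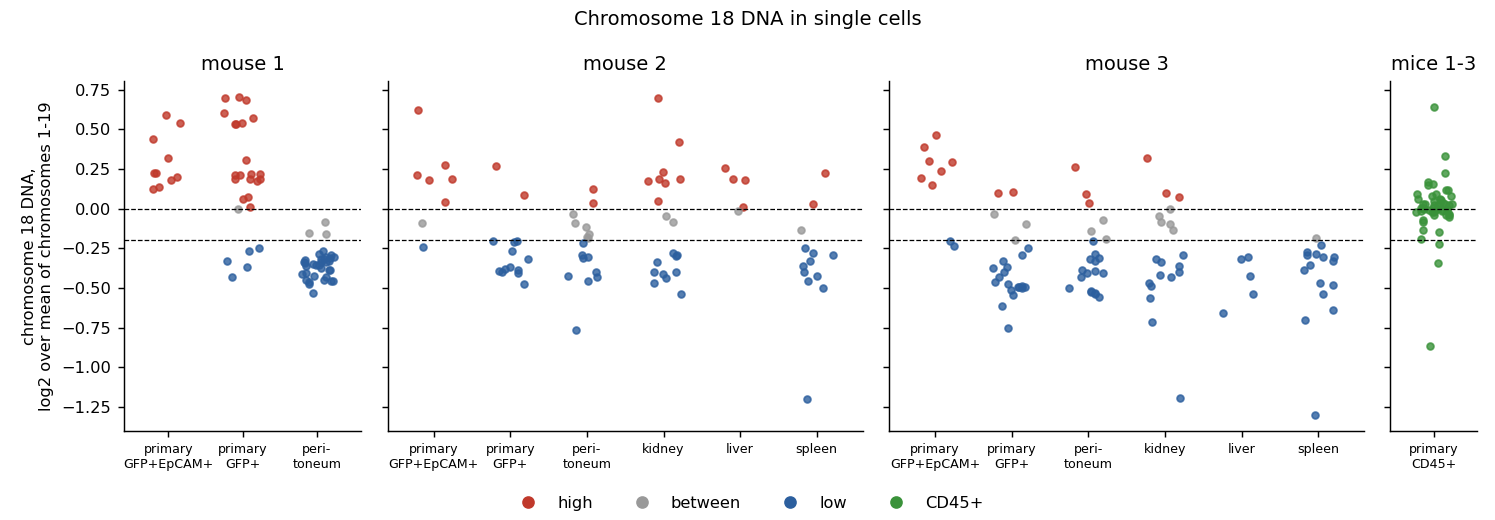
Chromosome 18 DNA of each cell (vertical axis, log2 over the mean of chromosomes 1 to 19) by mouse and sort, with dashed lines at 0 and -0.2 and a point for each cell. The 32 classed peritoneal cells of mouse 1 are all low, whereas 30 of the 35 classed cells of its primary tumour are high, and most CD45+ cells lie near 0.

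The site of a cell was not used to choose it. With both sorts of the primary tumour pooled, high cells made up a smaller share of the metastases in each of the 3 mice, but not so in the GFP+ sort alone, the sort used for the metastases. In mouse 1 none of 32 classed metastatic cells was high, against 30 of 35 primary cells (0%, 95% exact interval 0 to 10.9%, and 85.7%, 69.7 to 95.2%). Mouse 2 had 16 high cells of 45 in the metastases and 8 of 21 in the primary tumour (35.6%, 21.9 to 51.2%, and 38.1%, 18.1 to 61.6%), which overlapped within counting error, and mouse 3 had 6 of 54 and 9 of 29 (11.1% and 31.03%). The differences were -85.7, -2.54 and -19.9 percentage points, with a mean of -36.1 and a two-sided exact permutation p of 0.25, the smallest that 3 mice allow. Without mouse 1 the mean was -11.2 points. With the GFP+EpCAM+ cells left out the differences were -80.0, 21.3 and 1.11 points (mean -19.2, p = 1 in the same exact permutation test). The sign thus changed in mice 2 and 3, where 2 of 14 and 2 of 20 primary GFP+ cells were high. Of the 6 high metastatic cells of mouse 3, 3 lacked the shared losses (1 from kidney and 2 from peritoneum). The 1.11 points include these cells and were not computed without them. With both sorts, the mean without the 4 high cells that lack those losses was -37.7 points. Such intervals cover counting error only.

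Pooled over mice, sites differed among themselves, but less so within mouse 3. Peritoneum held 5 high cells of 62 classed cells over the 3 mice and spleen 2 of 27, whereas kidney held 11 of 33. Mouse 1 gave 32 of the 62 peritoneal cells and no kidney or spleen cells. In mouse 2 high cells were 8 of 18 in kidney, 2 of 11 in peritoneum and 2 of 12 in spleen. In mouse 3 they were 3 of 15, 3 of 19 and 0 of 15. Liver went opposite ways in 2 mice, with 4 high cells of 4 in mouse 2 and none of 5 in mouse 3 (exact intervals 39.8 to 100% and 0 to 52.2%). Within the primary tumour the share of high cells was higher in the GFP+EpCAM+ sort in each mouse, a comparison chosen after the values were seen. High cells were 10 of 10 GFP+EpCAM+ cells and 20 of 25 GFP+ cells in mouse 1. They were 6 of 7 GFP+EpCAM+ cells and 2 of 14 GFP+ cells in mouse 2, and 7 of 9 and 2 of 20 in mouse 3. The mean difference was 53.1 percentage points (two-sided exact permutation p = 0.25). GFP+EpCAM+ cells gave 23 of the 69 high cells and 3 of the 147 low cells. In the primary tumours of mice 2 and 3 class thus largely followed the sort. Results of primary cells taken alone cannot tell the 2 apart in those mice. The low RNA sum of primary cells of mouse 1 held 5 cells, and 1 of them gave 53.6% of its counts.

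The other autosomes showed a karyotype that both classes shared. Levels below are log2 of the mean count per bin over the mean of the autosomes other than 18. Chromosomes 4, 10 and 14 lay between -0.43 and -0.35 in the high cells of every mouse, and between -0.47 and -0.39 in the low cells, against means of -0.04, -0.05 and -0.08 in CD45+ cells. Chromosomes 7, 9 and 13 were also under-represented, from -0.34 to -0.16 in high cells and from -0.42 to -0.26 in low cells. Chromosome 17 was 0.17, 0.21 and 0.19 in high cells and 0.15, 0.19 and 0.18 in low cells of mice 1, 2 and 3, so it was above the CD45+ mean of 0.00 in both classes. In mouse 1 every high cell was from the primary tumour and 32 of 37 low cells were peritoneal, so over all its cells class and site cannot be told apart. Differences within its primary tumour are therefore given where they depart.

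Chromosome 2 was the 1 autosome of the 18 tested (5.56%) that passed the test, limma with the mouse as a block and Benjamini-Hochberg adjustment. Its level was 0.20, 0.16 and 0.22 in high cells of mice 1, 2 and 3, against 0.41, 0.41 and 0.42 in low cells, and 0.05 ± 0.16 in CD45+ cells (SD, n = 53). High and low means did not overlap. The difference was -0.22 ± 0.03 (SE, 3 mice) with an adjusted p of 0.0233. Without the 4 cells that lack the shared losses it was -0.20 with an adjusted p of 0.0539, and without mouse 2 it was -0.20 with an adjusted p of 0.237. In primary and in metastasis cells taken alone chromosome 2 was at -0.22 and -0.21 (adjusted p = 0.0617 and 0.297), so its direction was kept and its call was not.

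Other chromosomes differed in size between mice and did not pass. Chromosome 8 was 0.12, 0.07 and 0.02 in high cells and -0.33, -0.08 and -0.09 in low cells of mice 1, 2 and 3, a difference of 0.24 ± 0.08 (SE; limma adjusted p = 0.149). Chromosome 3 was 0.56, 0.43 and 0.26 in high cells and 0.22, 0.17 and 0.24 in low cells, a difference of 0.21 ± 0.07 (adjusted p = 0.149). The high and low means of these chromosomes did not overlap, but for chromosome 3 the difference was 0.34 and 0.26 in mice 1 and 2 and 0.02 in mouse 3. Chromosome 16 was at 0.16 in high and 0.16 in low cells of mouse 1, at 0.04 and -0.18 in mouse 2 and at 0.02 and -0.21 in mouse 3, with an adjusted p of 0.154. Within the primary tumour the high minus low difference of chromosome 16 was 0.33, 0.26 and 0.27 in mice 1, 2 and 3 (mean 0.29, limma adjusted p = 0.0108), and within the metastases 0.20 and 0.19 in mice 2 and 3. In primary cells of mice 2 and 3 class largely followed the sort. Chromosome 12 was at -0.38 in high and -0.09 in low cells of mouse 1, at -0.41 and -0.42 in mouse 2 and at -0.34 and -0.45 in mouse 3. Within the primary tumour its difference was 0.07, 0.08 and -0.01 in mice 1, 2 and 3. With the mouse and the site of the cells together as the block, 6 of the 18 autosomes passed in limma, among them chromosome 8 at 0.16 (adjusted p = 0.0113) and chromosome 16 at 0.23 (adjusted p = 0.000106). Mice 2 and 3 each gave more than 1 pair of means to that fit, so its p-values are not over mice. The high means of mouse 3 in kidney and peritoneum held 3 cells each.

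**Figure D2:**
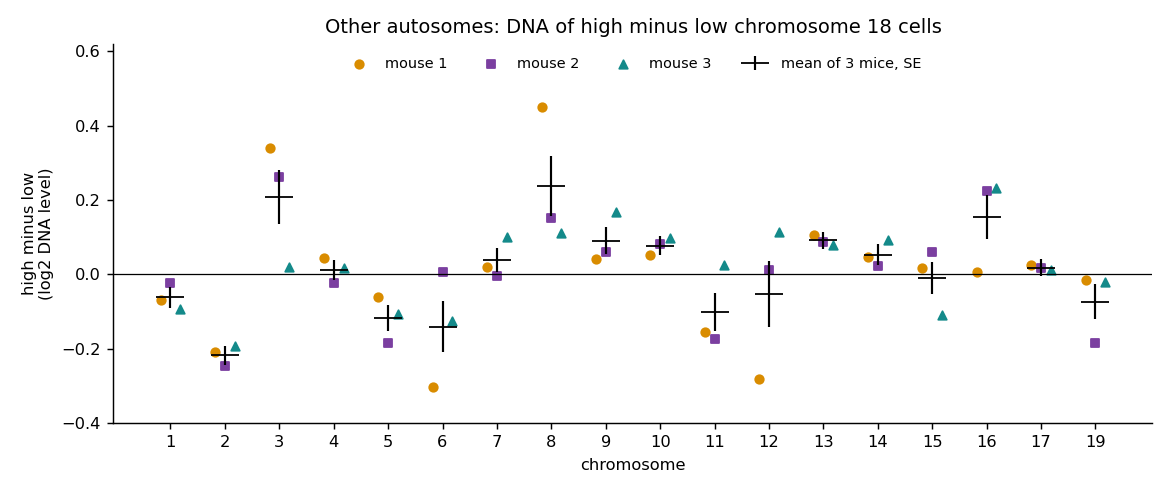
High minus low difference in log2 DNA level for each autosome other than 18 (horizontal axis), with a symbol for each mouse and a bar for the mean of 3 mice with its SE. Chromosome 2 lies between -0.25 and -0.19 in every mouse, while chromosomes 3, 8, 12 and 16 are spread between mice.

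Across cells, the level of chromosome 18 was related to those of chromosomes 2, 3 and 8 within the GFP+ cells as a whole (Pearson's r = -0.53, 0.47 and 0.41 over 243 cells). The cells share mice, amplification and depth, and their levels share a denominator, so these are descriptions. In the 53 CD45+ cells, which show no such gains or losses on average, the same 3 values were -0.61, 0.42 and 0.15. For chromosomes 2 and 3 the values in host cells were of similar size, and the part of amplification in them was not tested.

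The bins showed which stretches of other chromosomes differed. Of 4552 autosomal bins outside chromosome 18, 109 were higher in high cells (2.39%) and 41 lower (0.901%) in edgeR's quasi-likelihood test at an adjusted p of 0.05. Chromosome 16 held 50 of the higher bins and chromosome 8 held 36, while chromosomes 11, 2 and 6 held 18, 9 and 8 of the lower ones. Bins next to each other are not independent, so the counts describe stretches. Without mouse 3 the count of called bins was 229 in place of 150, without mouse 2 it was 84, and in primary tumour cells alone it was 0.

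On chromosome 8 the called bins lay towards the end of the chromosome. From position 87226593 (build mm9) onward, over 93 bins, high cells averaged 0.03, 0.00 and -0.05 in mice 1, 2 and 3, against -0.41, -0.38 and -0.39 in low cells and -0.09 in CD45+ cells. On the 158 bins before it, high cells averaged 0.17, 0.10 and 0.05, against -0.29, 0.07 and 0.05 in low cells. Low cells of each mouse were below the CD45+ mean in the distal stretch, and those of mouse 1, mostly peritoneal, along the rest of the chromosome too. On chromosome 16 most called bins lay in the middle (15056077 to 62729863, 96 bins), and 10 of the 50 lay beyond it, in bins that start at up to 83216517. In the middle stretch high cells averaged 0.19, 0.09 and 0.16, against -0.02, -0.27 and -0.38 in low cells. The other 96 bins of chromosome 16 averaged 0.13, -0.02 and -0.17 in high cells and 0.31, -0.12 and -0.09 in low cells. Distal chromosome 11, from 93755139 over 60 bins, averaged -0.16, 0.24 and 0.38 in high cells and 0.18, 0.66 and 0.43 in low cells. Its CD45+ values also varied (SD 0.43, n = 53). These stretches were bounded after their values were seen and were not tested apart from their bins.

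The sex chromosomes also differed between the classes. The host mice were males, and the CD45+ cells had Y DNA in 51 of 53 cells. Y DNA, read on 3 bins, was counted as present where its mean count per bin was over 0.1 of that of the autosomes other than 18. It was present in 48 of 69 high cells (69.6%, 95% exact interval 57.3 to 80.1%), against 1 of 147 low cells (0.680%, 0.0172 to 3.73%). By mouse it was present in 25 of 30, 14 of 24 and 9 of 15 high cells, and in 0 of 37, 0 of 42 and 1 of 68 low cells. No high cell had a ratio between 0.0589 and 0.156, so the count does not rest on where in that gap the limit lies. Among the cells between the thresholds 11 of 27 had Y DNA. Per mouse, the mean Y ratio was 0.363, 0.287 and 0.220 in high cells, against 0.00368, 0.00983 and 0.0113 in low cells, a mean difference of 0.282 with a two-sided exact permutation p of 0.25, the smallest that 3 mice allow.

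High cells without Y DNA had a median chromosome 18 value of 0.18, against 0.21 in high cells with it, values that were not tested since the cells were chosen by them. Pooled over mice, both kinds of high cell had more chromosome 3 than the low cells, with medians of 0.58 with Y and 0.43 without, against 0.18. In mouse 3 the mean level of chromosome 3 was 0.26 in high and 0.24 in low cells. In the primary tumour Y DNA was present in 15 of 23 high GFP+EpCAM+ cells and 21 of 24 high GFP+ cells, of which 20 were from mouse 1, and its relation to the sort was not tested.

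RNA of the Y chromosome, which the rule did not use, followed the DNA. Summed RNA of Ddx3y, an RNA helicase, Eif2s3y, a translation initiation factor, and Kdm5d and Uty, histone demethylases, reached 10 CPM in 24 of 47 high cells with Y DNA, in 0 of 20 high cells without it (exact interval 0 to 16.8%) and in 7 of 147 low cells. In CD45+ cells it did so in 28 of 53. Median RNA counts were 1209170 in high cells with Y DNA, 2095920 in those without, 1268070 in low cells and 798731 in CD45+ cells. Eif2s3y had 0.385, 43.6 and 4.08 CPM in the high sums of mice 1, 2 and 3, against 0, 0.0214 and 0 CPM in the low sums. These genes were chosen after their values were seen, and none passed the test over all genes.

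X DNA was also higher in the high cells of each mouse. Its level was -0.45, -0.72 and -0.73 in high cells of mice 1, 2 and 3, against -1.24, -0.89 and -1.13 in low cells, where -0.99 was the median of the male CD45+ cells. The mean difference was 0.46 (two-sided exact permutation p = 0.25) and was 0.79, 0.17 and 0.40 by mouse. High cells with Y DNA had a median X level of -0.41, and those without it -0.56. Without the cells that lack the shared losses these counts of Y DNA lose 4 high cells, each with a Y ratio of at least 0.347.

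**Figure D3:**
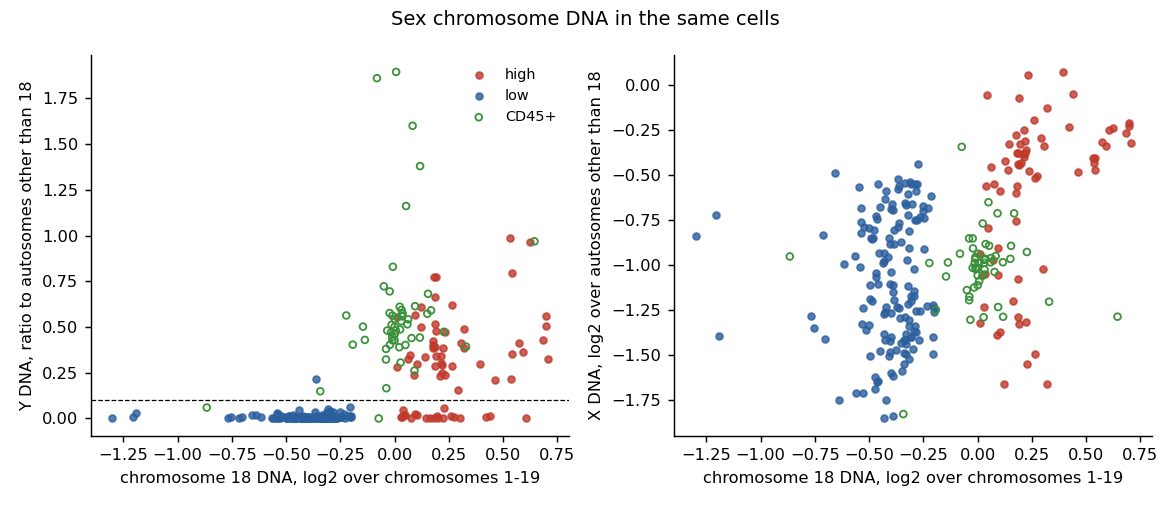
Y DNA (left, ratio to autosomes other than 18, with a dashed line at 0.1) and X DNA (right, log2 over the same autosomes) against chromosome 18 DNA (horizontal axis, log2) in high, low and CD45+ cells, with a point for each cell. Among the tumour cells, Y DNA appears above the line in 48 of 69 high cells and in 1 of 147 low cells, and X is higher in most high cells than in most low cells.

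RNA of chromosome 18 as a whole was higher in the high cells of each mouse. Its genes held 3.26%, 2.86% and 2.93% of the RNA counts of the average high cell in mice 1, 2 and 3, against 2.06%, 2.37% and 1.92% in low cells. The difference was 1.198, 0.4879 and 1.014 percentage points (mean 0.90, two-sided exact permutation p = 0.25). It was 0.80 points in primary tumour cells and 0.70 points in metastasis cells taken alone. Exonic reads were taken as RNA and nonexonic reads as DNA of the same library, so some exonic reads can come from the genome and some nonexonic reads from unspliced RNA. The part of such reads in the relation of RNA to DNA was not tested.

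Few single genes passed the test. Of 21898 genes tested with edgeR's quasi-likelihood test, with the mouse as a block and Benjamini-Hochberg adjustment at 0.05, 10 passed (0.0457%), of which 9 were higher (0.0411%) and 1 lower (0.00457%) in high cells. At an unadjusted p below 0.05 there were 1475. Of the 527 genes that RefSeq places on chromosome 18, 1 passed, and their median log2 difference was 0.47, against -0.19 over all genes tested. In 69 of the 527 the 3 high sums lay above the 3 low sums and in 14 below, where 4.53% of all genes tested lay above and 5.74% below. The chromosome 18 median depends on the scaling: it was 0.08 with library totals, when the median of all genes was -0.57, and -0.01 when each cell counted alike, when that of all genes was -0.25. Relative to all genes it was above in each of these.

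On the other autosomes RNA and DNA differences ran in parallel. Over the 18 autosomes other than 18, the median RNA difference of a chromosome's genes followed its DNA difference (Pearson's r = 0.91, Spearman's rho = 0.89 over 18 chromosomes from the same 3 mice). Chromosomes 8 and 3 had RNA medians of 0.12 and 0.07, while chromosomes 6, 11 and 2 had -0.45, -0.42 and -0.41. The chromosomes share cells, libraries and scaling, so the coefficients are a description. The 762 tested genes of the X had a median of 0.36.

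**Figure D4:**
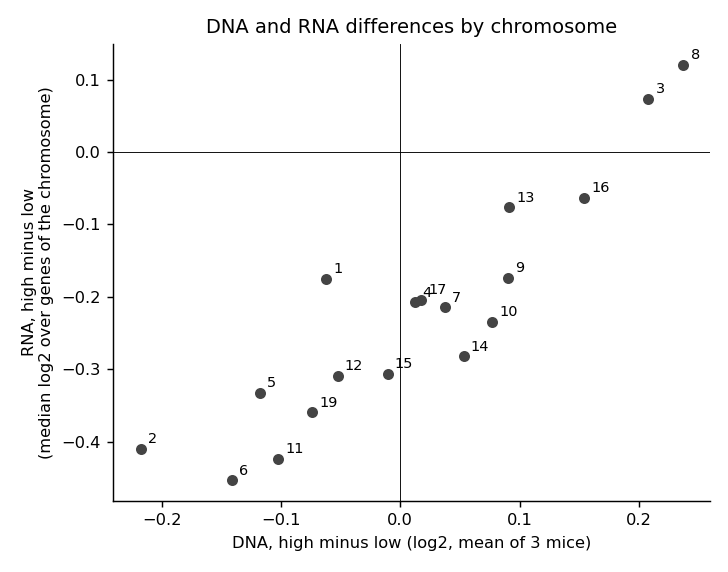
Median RNA difference over the genes of a chromosome (vertical axis, log2, high minus low) against its DNA difference (horizontal axis, log2, mean of 3 mice) for the 18 autosomes other than 18, numbered. Chromosomes 8 and 3 lie at the upper right and chromosomes 2, 6 and 11 at the lower left.

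The known regulators on chromosome 18 did not pass the test. Levels in the following are CPM of the sums, scaled by TMM, in mice 1, 2 and 3. Smad4, the shared partner of the signalling SMADs, had 41.6, 66.7 and 23.97 CPM in high cells, against 4.84, 51.5 and 35.7 in low cells, so it was lower in the high cells of mouse 3 (log2 0.89 ± 1.13 SE, edgeR adjusted p = 0.947). Its value turned negative without mouse 1 (-0.11) and in metastasis cells taken alone (-0.43). Smad2, a receptor-activated SMAD, had 119, 114 and 126 CPM in high cells, against 71.3, 95.9 and 63.7 in low cells (log2 0.66, adjusted p = 0.929). Its high sums lay above its low sums, as did those of Smad7, with 22.03, 14.6 and 15.5 CPM in high and 3.60, 7.63 and 5.03 in low cells (log2 1.72, adjusted p = 0.844). Counted by cell, Smad2 reached 10 CPM in 49.3% of high and 55.1% of low cells, Smad7 in 28.4% and 27.9% and Smad4 in 43.3% and 44.2%. With each cell counted alike the log2 difference of Smad2 was -0.15.

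Of the other regulators, Gata6, a transcription factor of pancreatic and gut epithelium, had 20.2, 10.6 and 20.02 CPM in high cells, against 0.945, 6.69 and 2.60 in low cells (log2 2.71, adjusted p = 0.772). Rock1, a kinase of the contractile cytoskeleton, had 56.4, 66.8 and 96.1 against 35.4, 22.6 and 52.4 CPM (log2 1.04, adjusted p = 0.879). Apc had 167, 68.4 and 23.6 CPM in high cells and 10.2, 29.3 and 20.8 in low cells, which overlapped (log2 1.73, adjusted p = 0.834). Cdh2, which encodes N-cadherin, also overlapped (log2 2.22, adjusted p = 0.778). Hbegf, a ligand of the epidermal growth factor receptor, had 1249, 1148 and 1593 CPM in high and 244, 67.97 and 176 in low cells (log2 3.20, adjusted p = 0.0839). Counted by cell, Gata6 reached 10 CPM in 14.9% of high and 15.0% of low cells, Rock1 in 49.3% and 46.9% and Apc in 44.8% and 42.9%. Cdh2 did so in 20.9% and 15.6%, and Hbegf in 83.6% and 51.7%. In a list of 34 chromosome 18 genes none passed, the high sums lay above the low sums in 12 and below in 1, and the median was 0.91. Without GFP+EpCAM+ cells that median was 0.02, against -0.25 over all genes, and none passed. In metastasis cells taken alone it was 0.28, against -0.26, and 1 passed. Of the list, 3 passed without mouse 1, 2 in primary cells taken alone and 1 without the cells that lack the shared losses. With the mouse and site block, whose p-values are not over mice, 2 passed. Each gene that passed in these fits was higher in high cells. None passed without mouse 2 or without mouse 3. Cd74, the invariant chain of major histocompatibility complex (MHC) class II, and Cd14, a lipopolysaccharide co-receptor, had the next smallest p of that list (log2 4.85 and 2.87, adjusted p = 0.308 and 0.313). CD45+ cells often held both, with 10 CPM reached in 92.5% and 71.7% of them.

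The gene of chromosome 18 that rose was Lims2, an adaptor of focal adhesions. It had 157, 18.99 and 235 CPM in high cells, against 0.337, 0.0858 and 0.440 CPM in low cells (log2 8.58 ± 1.07 SE, edgeR adjusted p = 0.0459). It reached 10 CPM in 22.4% of the 67 high cells and 2.72% of the 147 low cells, so a minority of high cells carried the sum. In metastasis cells taken alone its log2 difference was 1.404 (adjusted p = 1).

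The genes on other chromosomes that rose included secreted, membrane and metabolic proteins. Cdh13, the membrane-anchored T-cadherin, had 656, 576 and 514 CPM in high cells, against 3.63, 1.17 and 9.5 in low cells (log2 7.40 ± 0.85 SE, adjusted p = 0.0416). It reached 10 CPM in 67.2% of high and 18.4% of low cells. Sepp1, the selenium carrier selenoprotein P, had 3111, 1753 and 2556 CPM in high cells, against 286, 292 and 149 in low cells (log2 3.38 ± 0.38 SE, adjusted p = 0.0416). Its rise passed in metastasis cells of mice 2 and 3 taken alone as well (log2 4.17, edgeR adjusted p = 1.1e-05). That fit included the 3 high cells of mouse 3 that lack the shared losses, among 6 high cells of that mouse. Tmsb4x, the actin-binding thymosin beta 4, which lies on the X, had 7378, 3007 and 4298 CPM in high cells, against 1674, 630.2 and 508 in low cells (log2 2.49 ± 0.26 SE, adjusted p = 0.0416). The high sums of these genes lay above the low sums without overlap.

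Lcn2, an iron-siderophore carrier of epithelia and neutrophils, had 194, 407 and 136 CPM in high cells, against 0.394, 0.486 and 1.55 in low cells (log2 8.41, adjusted p = 0.0459). Apoc2, the cofactor of lipoprotein lipase, had 769, 47.6 and 316 CPM against 14.8, 0.722 and 7.15 (log2 5.73, adjusted p = 0.0416). Ugt1a7c, a glucuronosyltransferase that conjugates small molecules, had 1463, 799 and 516 CPM against 91.4, 59.5 and 55.8 (log2 3.65, adjusted p = 0.0459). In metastasis cells taken alone the log2 difference of Ugt1a7c was -0.01. Spp1, the secreted matrix protein osteopontin, was abundant in both classes, with 30332, 29881 and 24144 CPM in high and 15657, 19919 and 13360 in low cells (log2 0.80, adjusted p = 0.0459), and in primary tumour cells taken alone its log2 difference was -0.37. The ninth gene that rose, 8430408G22Rik, had 394, 593 and 92.3 CPM in high and 1.21, 0.629 and 1.34 in low cells (log2 8.13, adjusted p = 0.0459), and is given although the naming rule left such symbols out.

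Dcn was the gene that fell. It encodes decorin, a collagen-binding proteoglycan made by fibroblasts and mesenchymal cells. High cells of mice 1, 2 and 3 had 62.2, 615 and 129.7 CPM, against 396, 6309 and 1363 in low cells (log2 -3.14 ± 0.31 SE, edgeR adjusted p = 0.0416). Its share of cells at 10 CPM or more was alike in mouse 1, in 7 of 30 high and 8 of 37 low cells, and differed in mouse 2 (9 of 22 and 39 of 42) and mouse 3 (7 of 15 and 63 of 68). Dcn passed in primary tumour cells taken alone (log2 -8.00) and in metastasis cells taken alone (log2 -2.51). In primary cells of mice 2 and 3 class largely followed the sort, so the 2 cannot be told apart there. High GFP+EpCAM+ cells reached 10 CPM of Dcn in 0 of 10, 2 of 6 and 0 of 7 cells, by mouse. Low cells of that sort did so in 1 of 1 in mouse 2 and 2 of 2 in mouse 3. In mouse 1 the cell without the shared losses gave 92.4% of the Dcn counts of the high sum, and without the 4 such cells the log2 difference was -4.34 (adjusted p = 0.0329).

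These 10 calls had narrow margins. Without mouse 3 none of them passed, without mouse 1 the 10 passed among 174 calls, and without mouse 2 there were 9 calls, 4 of them among the 10. Without GFP+EpCAM+ cells 2 genes passed, 1 of them (Cdh13) among the 10, and without the 4 cells that lack the shared losses 28 passed, the 10 among them.

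**Figure D5:**
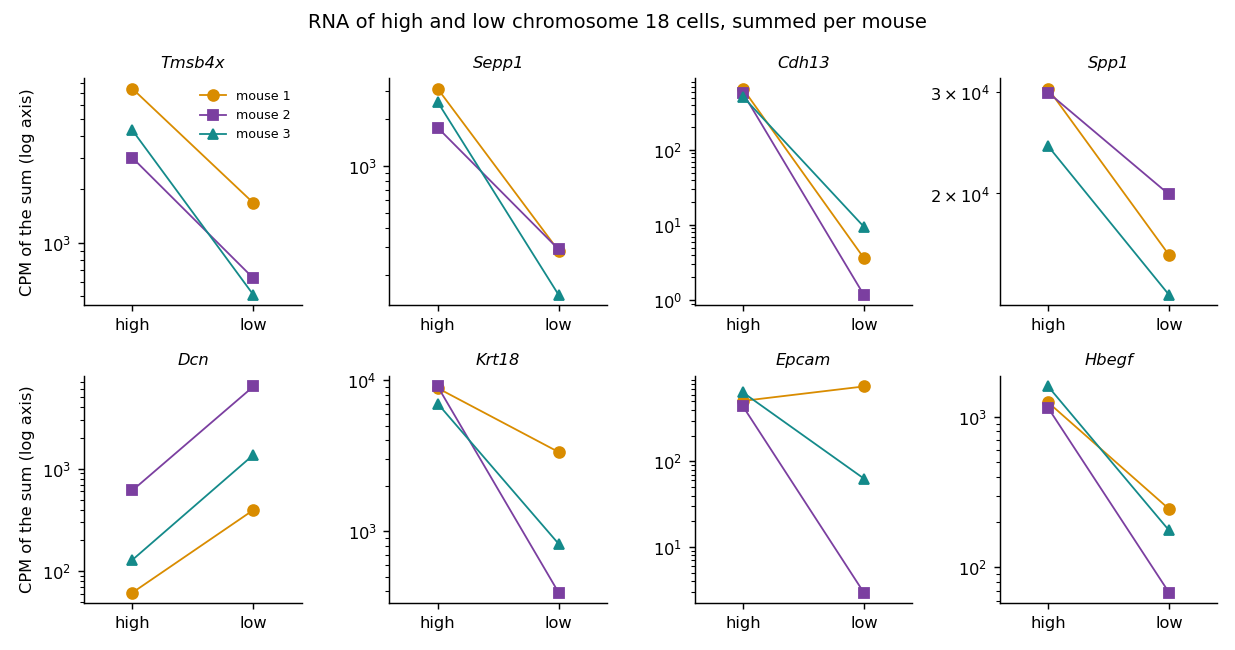
CPM of the RNA sums (vertical axes, log scale) of high and low cells for 8 genes, with a line for each mouse. Tmsb4x, Sepp1, Cdh13 and Spp1 lie higher and Dcn lower in the high sums of every mouse, while Epcam is lower in the high sum of mouse 1 (508 against 749 CPM) and higher in mice 2 and 3.

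Of 20 tested genes of an epithelial list, 1 passed, Lcn2, the high sums lay above the low sums in 11 and below in none, and the median log2 difference was 3.54, against -0.19 over all genes. The shares over all genes tested, 4.53% above and 5.74% below, also apply to the counts of the lists that follow. The summed level of the epithelial list was 13611, 21062 and 21904 CPM in high cells, against 5811, 717 and 1702 in low cells. Krt18 and Krt8, the paired keratins of simple epithelia, had log2 differences of 3.02 and 2.75 (edgeR adjusted p = 0.128 and 0.217). Krt18 had 8873, 9102 and 7005 CPM in high and 3344, 391 and 824 in low cells. It reached 10 CPM in 30 of 30, 20 of 22 and 14 of 15 high cells and in 33 of 37, 27 of 42 and 42 of 68 low cells.

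The epithelial values moved with the mice, the EpCAM sort and the site. Without mouse 1, 12 of the 20 passed with a median of 5.07, without mouse 2 the median was 2.24, and without mouse 3 none passed. When the 4 cells that lack the shared losses were left out, 2 passed. In primary cells taken alone, where class largely followed the sort in mice 2 and 3, 5 passed. Without GFP+EpCAM+ cells the list's median was 1.82 and in metastasis cells taken alone 1.22, with none called, and in the metastasis cells Krt18 was at -0.41. Epcam itself, the sorted protein's gene, had 508, 439.8 and 638 CPM in high cells and 749, 2.95 and 63.1 in low cells, so mouse 1 differed from the others (log2 3.33, adjusted p = 0.739). In mouse 1 it reached 10 CPM in 13 of 30 high and 25 of 37 low cells, where 23 of the 25 were peritoneal cells. In mice 2 and 3 it did so in 10 of 22 and 9 of 15 high cells, against 6 of 42 and 14 of 68 low cells. Muc1, a transmembrane mucin, had 581, 5229 and 6448 CPM in high cells, against 281, 142 and 232 in low cells (log2 3.86, adjusted p = 0.261), and Krt19, a ductal keratin, 432, 1288 and 2457 against 277, 15.9 and 120.2 (log2 3.95, adjusted p = 0.436). Epcam, Muc1 and Krt19 were chosen after their values were seen.

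Of 14 genes of classical pancreatic tumours none passed, 4 had high sums above the low sums and none below, and the median was 3.25. That median was 0.90 without GFP+EpCAM+ cells, 0.74 in metastasis cells taken alone and 0.33 with each cell counted alike. There were 5 calls without mouse 1 and 1 without the 4 cells that lack the shared losses. Onecut2, a transcription factor of pancreatic and hepatic lineages, and Ctse, the protease cathepsin E, were among the members with the smallest p. Onecut2 had 825, 827 and 1619 CPM in high cells, against 146, 17.1 and 49.1 in low cells (log2 4.44, adjusted p = 0.123). Ctse had 2488, 556 and 1940 CPM in high cells, against 722, 3.16 and 47.1 in low cells (log2 5.02, adjusted p = 0.276). Sox9, a ductal transcription factor, was similar in both classes, at 266, 1111 and 708 CPM in high and 131, 984 and 717 in low cells (log2 0.39 ± 0.39 SE).

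Of 19 mesenchymal genes none passed, 1 had high sums above and 3 below the low sums, and the median was -1.45 (-3.10 in primary and -0.62 in metastasis cells taken alone). Among all genes tested 4.53% lay above and 5.74% below. Fn1, which encodes fibronectin, had 526, 555 and 211 CPM in high cells, against 995, 1491 and 1363 in low cells (log2 -1.67, adjusted p = 0.388). Snai2, a repressor of epithelial genes, had 1.47, 15.5 and 43.7 against 104, 66.4 and 174 CPM (log2 -3.21, adjusted p = 0.643), and Tnc, the matrix protein tenascin C, 8.16, 54.3 and 5.596 against 19.7, 296 and 169 CPM (log2 -2.82, adjusted p = 0.606). Vim, which encodes vimentin, was detected at 10 CPM in 88.1% of high and 96.6% of low cells (log2 -0.20 ± 0.36 SE).

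Of 16 fibroblast and stellate cell markers 1 passed, Dcn, 4 had high sums below the low sums and the median was -2.56. Without the 4 cells that lack the shared losses 5 of the 16 passed, each lower in high cells, with a median of -3.79, and without mouse 1 there were 9, without mouse 2 or mouse 3 none. Their summed level was 1637, 3882 and 1045 CPM in high cells, against 2257, 28970 and 9134 in low cells, and none of the 16 was at 0 in either class. Lum, the collagen-binding proteoglycan lumican, had 72.99, 174 and 47.1 CPM in high cells, against 303, 2133 and 1553 in low cells (log2 -3.57, adjusted p = 0.137), and Col1a1, the main collagen of fibroblasts, 106, 456 and 67.7 against 178, 3047 and 1363 (log2 -2.62, adjusted p = 0.371). In the high sum of mouse 1 the cell without the shared losses gave 97.5% of the counts of Lum and 96.9% of those of Col1a1. No low cell lacked the shared losses of chromosomes 4, 7, 9, 10, 13 and 14 (highest mean level -0.24). In sums, fewer cells that make an RNA and less RNA per cell cannot be told apart. Counted by cell, Col1a1 reached 10 CPM in 7 of 30, 8 of 22 and 6 of 15 high cells. It did so in 18 of 37, 41 of 42 and 65 of 68 low cells. A smaller share of high cells thus held it, and the level among the cells that held it was not compared.

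Markers of leukocytes were present in both classes. Macrophage and monocyte markers summed to 159.6, 68.3 and 2530 CPM in high cells, against 37.1, 54.2 and 102 in low cells, with none of 13 called or at 0 and a median of 1.33. Without the 4 cells that lack the shared losses the median was -0.67. The 12 pan-leukocyte markers summed to 122, 146 and 881 CPM in high and 28.4, 253 and 57.8 in low cells, with a median of 0.87 that was -0.73 without those 4 cells, and Ptprc, which encodes CD45, had 3.72, 0.705 and 14.5 against 2.22, 1.94 and 0.726 CPM. Ptprc reached 10 CPM in 77.4% of CD45+ cells. None of the 6 genes of MHC class II passed (median 3.31). That median was 3.28 without those 4 cells and 0.33 with each cell counted alike. The part of host RNA in the results was not tested.

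Pathways downstream of the chromosome 18 regulators showed no call. Of 15 targets of TGF-beta and SMAD signalling none passed, 1 had high sums above and 2 below, and the median was 0.04, with a range of -0.45 to 0.54 on leaving out a mouse. The shares over all genes tested were 4.53% above and 5.74% below. Tgfbi, an extracellular matrix protein induced by TGF-beta, had 1.14, 0.605 and 10.3 CPM in high cells, against 26.6, 82.6 and 28.7 in low cells (log2 -4.42, adjusted p = 0.644). Skil, a feedback repressor of SMADs, lay the other way at 189, 208 and 294 against 27.3, 133 and 56.8 CPM (log2 1.96, adjusted p = 0.653), and Id2, a transcriptional inhibitor, had a log2 difference of 1.33 (adjusted p = 0.625). Of 12 Wnt genes none passed and 3 had high sums below. Their median was -1.03, against -0.19 over all genes, and -0.10 in metastasis cells taken alone, against -0.26. Among them were Notum, a secreted Wnt inhibitor, at -4.87 and Tcf7, a Wnt effector, at -2.50, while Ctnnb1, which encodes beta-catenin, was at 1.0996 (adjusted p = 0.653, 0.772 and 0.496). The 11 p53 targets had a median of 0.73 with none called, and of -0.01 in primary cells taken alone, where all genes were at -0.29.

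Of 26 proliferation genes none passed. Their median was -0.56, against -0.19 over all genes, and 7 of the 26 had a positive difference, as had 9413 of all 21898 genes tested. Without mouse 2 the median was -0.13, against -0.27 over all genes, and in metastasis cells taken alone -0.16, against -0.26. In primary cells taken alone it was -1.41, against -0.29, and with each cell counted alike -1.27, against -0.25. Cdc6, which loads replication helicases, had 32.9, 7.71 and 12.2 CPM in high cells, against 68.98, 112 and 139 in low cells (log2 -2.86, adjusted p = 0.614). Aurkb, a mitotic kinase, and Mcm2, a helicase subunit, had log2 differences of -2.27 and -2.11 (adjusted p = 0.732 for each).

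Of 9 MHC class I genes none passed, 3 had high sums above the low sums, and the median was 0.76, and 0.33 without mouse 3. H2-D1 and H2-K1, class I heavy chains, had log2 differences of 2.65 and 3.30 (adjusted p = 0.202 and 0.252), and B2m, their light chain, had 8983, 3540 and 7371 CPM in high cells, against 2052, 3025 and 1262 in low cells (log2 1.66, adjusted p = 0.334). Class I heavy chains are near-identical genes among which counting can divide reads. Of 17 immediate early and heat shock genes none passed and 15 were positive, with a median of 0.53. That median was 0.03 without mouse 1, 0.07 in primary cells taken alone, 0.12 without GFP+EpCAM+ cells and -0.02 with the mouse and site block. Over all genes the medians of these fits were -0.14, -0.29, -0.25 and -0.50. Atf3, a stress-induced transcription factor, had 431, 1023 and 1838 CPM in high and 112, 152 and 408 in low cells (log2 2.29, adjusted p = 0.14). The remaining lists had medians of 0.41 for 14 genes of hypoxia and glycolysis, -0.78 for 18 interferon genes, 0.09 for 22 ribosomal proteins and 0.28 for 20 genes of oxidative phosphorylation, and none of their genes passed.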

How the data were processed

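RNA and DNA of 420 single-cell libraries and 6 bulk libraries were analysed. Per the file headers and labels, the authors deposited expected counts per gene (97.4% of them whole numbers) and DNA read counts in 5000 bins. The submitters' processing notes name STAR, kallisto, Bowtie 1.0 and mm9 without saying which made which file. Exonic reads were taken as RNA and nonexonic ones as DNA, per the labels. From the 24520 RNA rows, 92 ERCC spike-ins (0.000348% of counts) and 4 with repeated symbols were removed. Of 24424 symbols 95.7% matched the RefSeq GRCm38.p6 table, which was used for the chromosome of a gene alone. In 2 of 2409 pairs of libraries of a group and mouse, DNA counts differed by less than the sampling noise (chi-square per degree of freedom 0.735 and 0.854), and each was counted as 1 cell.

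Counts were summed per mouse and class (at least 3 cells) and RNA sums rounded to whole numbers. RNA sums held 18492000 to 165882000 counts. edgeR 4.0.16 quasi-likelihood tests (TMM, filterByExpr) served genes. The same tests without TMM, with the autosomal bins outside chromosome 18 as library, served bins. limma 3.58.1 served 18 autosomes, with R 4.3.3 and, for sums, Python 3.11.15. The mouse was a block, since mouse numbers in the labels mark the same animal. High and low sums of the same mouse correlated in their deviations (0.31, 0.16 and 0.16). Scripts were tested on simulated data. Alternatives were DESeq2 1.42.0, library totals, no gene filter, stricter cell filters, wider thresholds, each cell alike, no block, a mouse and site block, other references, leaving out a mouse, a sort or cells by their autosomes, and primary cells alone. Cells were left out for an SD over autosome levels below 0.387 (low SD), the 95th percentile of CD45+ cells, a limit that most tumour cells also met, or for lacking the shared losses (mean level above -0.15). Leaving out cells by the shared losses, metastasis cells alone, and the shares without GFP+EpCAM+ cells were added after the data had been seen.

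Named genes were 7 chosen chromosome 18 genes, called genes with a mean of at least 10 CPM, up to 12 in each direction and without predicted or Y-linked ones, and the 3 members of smallest p of each list. Members and lists were chosen with earlier results of these data known. A gene that the rule names is not reported here.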

Additional observations from a re-analysis of the deposited data

Results flagged for a closer look

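Bulk DNA of sorted GFP+ cells, which no comparison used, departed from the CD45+ bulk level on chromosome 18. GFP+ bulk DNA of the peritoneal metastasis of mouse 1 was at -0.33, against 0.29 in its primary tumour, and that of the primary tumour of mouse 2 was at -0.18. CD45+ bulk DNA of mouse 1 was at 0.01. The Y ratio of these libraries was 0, 0.397, 0.114 and 0.504 in the same order. Each is a single library, so no test was made.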

How the results depend on the processing

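The 10 gene calls became 44 with thresholds of 0.1 and -0.3, 33 without cells of low autosome SD, 28 without the 4 cells that lack the shared losses, 90 in primary cells alone, 2 without GFP+EpCAM+ cells, 1189 with DESeq2 and 0 with each cell alike, where 4771 genes had an unadjusted limma p below 0.05. Leaving out a mouse gave 0 to 174 calls. The autosome count of 1 became 6 with a mouse and site block, 2 in primary cells, 3 with the median of the other autosomes as reference, and 0 without cells of low SD or without those 4, in metastasis cells alone and with edgeR, and 0 to 3 without a mouse. The p-values of the mouse and site block are not over mice. The 150 bins became 0 without cells of low SD and in primary cells alone, 93 without the 4 cells and 25 in metastasis cells, and 84 to 229 without a mouse. With no replicate block for the mouse pairing, 4 genes and 12 bins passed. The mean site difference and the chromosome 18 RNA share kept their sign in the alternatives run for them (-52.8 to -11.2 points and 0.75 to 1.11 points without a mouse). Without GFP+EpCAM+ cells they were -19.2 and 0.75 points, and the site difference changed sign in mice 2 and 3, to 1.11 points in mouse 3. The limit on SD left 11 high and 39 low cells, so it removed most cells with the shared losses and does not pick out near-diploid ones. Mouse 1 kept 2 cells in each class and thus fell out of the fits of genes, autosomes and bins under that limit. The high RNA sums left were of 3 cells of mouse 2, where 1 cell gave 76.9% of counts, and 6 cells of mouse 3.

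Signs turned for 7 autosomes, none of them called. With wider thresholds chromosome 4 was at -0.00371 and 15 at 0.0099. Without cells of low SD chromosomes 4, 11, 14, 15 and 19 were at -0.121, 0.109, -0.0607, 0.0336 and 0.00775, and without the 4 cells chromosomes 4 and 15 at -0.0161 and 0.00315. At 200000 DNA reads chromosomes 12 and 17 were at 0.0256 and -0.0132. In metastasis cells they were at 0.153 and -0.0183, and in primary cells chromosome 12 was at 0.0456. Chromosome 12 was at 0.0975 with the site block, and 17 at -0.00173 with edgeR. Leaving out a mouse put chromosome 4 between -0.00321 and 0.0304, chromosome 12 between -0.136 and 0.0627 and chromosome 15 between -0.0463 and 0.0387.

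Of the genes, 2 called ones turned, Spp1 in primary cells (-0.37) and Ugt1a7c in metastasis cells (-0.00895). In metastasis cells Aldoa (-0.61), Apc (-0.0735), Klf6 (-0.0265), Krt18 (-0.41), Rock1 (-0.24) and Smad4 (-0.43) also turned. Without cells of low SD so did Aldoa (-1.09), Apc (-0.54), Cdh2 (-0.0477), Klf4 (-2.24), Klf6 (-0.70), Ldha (-0.18), Rpl4 (-0.0407), Rps9 (-0.71), Smad2 (-1.51), Smad4 (-1.87) and Snai2 (0.35). With each cell alike Ccng1 (-0.28), Rpl4 (-0.21), Rps3 (-0.29), Rps9 (-0.16), Smad2 (-0.15) and Trp53 (-0.0204) turned. With the site block it was Rpl4 (-0.17), Smad4 (-0.59) and Smad7 (-0.10), and with library totals Rpl4 (-0.0857) and Rps3 (-0.0957). In primary cells it was Rpl4 (-0.57), Rps3 (-0.13), Rps9 (-0.0544) and Trp53 (-0.0107). Without GFP+EpCAM+ cells it was Car9 (-1.31), Rock1 (-0.28), Smad2 (-0.0515) and Smad4 (-0.68), and leaving out a mouse put Smad4 between -0.11 (without mouse 1) and 1.81. The cause of these turns was not tested. Of the remaining values of single genes, 868 kept their direction and side of the threshold, 61 were no longer past it and 56 came past it. For autosomes these numbers were 233, 6 and 12.

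Depth limits these results. Sums of 3 mice give few degrees of freedom, genomic reads in exons and 3 bins on Y bound what RNA and Y counts show, and the high sum of DNA in mouse 3 drew 27.98% of its reads from 1 cell.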

Other observations

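EpCAM+ cells of the primary tumours, sorted without GFP, held 22 cells with at least 50000 DNA reads. Of these, 15 lay above 0 for chromosome 18 (68.2%, 95% exact interval 45.1 to 86.1%), 12 of them with Y DNA, and 4 lay below -0.2. By mouse, 8 of 10, 5 of 6 and 2 of 6 lay above 0. The shared losses were lacking in 4 of the 22 cells, and 14 of the 15 above 0 had them.

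Mmp7, a secreted protease of epithelia, had 58.1, 80.3 and 50.2 CPM in high cells of mice 1, 2 and 3, against 0.259, 0.179 and 0.240 CPM in low cells (log2 8.10, edgeR adjusted p = 0.121). Grem1, a secreted antagonist of bone morphogenetic proteins, had 1.63, 23.3 and 55.1 CPM in high and 14.7, 609 and 639.9 in low cells (log2 -3.80, adjusted p = 0.124). Serpinf1, which encodes pigment epithelium-derived factor, had 146, 969 and 291 CPM in high and 695, 3413 and 1445 in low cells (log2 -2.13, adjusted p = 0.101). None of these passed, and they were chosen after their values were seen.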
